A study of Mus musculus with 12 samples.

Results

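The prostaglandin E2 (PGE2) pathway was followed through 10 genes chosen by name in bone marrow-derived macrophages (BMDMs), which are cultured from precursors in mouse marrow. These were Pla2g4a, Ptgs1, Ptgs2, Ptges, Ptges2, Ptges3, Hpgds, Hpgd, Ptger2 and Ptger4. Each matched 1 of the 48526 genes in the deposited count table. All 10 passed the count filter, with between 8 and 3422 counts in a library.

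The BMDMs came from female C57Bl/6J mice and were grown with mCSF, and day 7 cells were treated for 16 hours. Cells of each of 3 mice were left untreated or received 100 ng/mL Wnt3a, 100 pg/mL IL-4 or both, so that every group holds the same 3 mice and a single sample of each. Total counts ranged from 13342492 to 17453377 per library. In each of the 3 mice, the column labelled Wnt3a and the column labelled Wnt3a+IL-4 share reads: the first lay between 1 and 2 times the second in every gene (0 of 48526 outside), whereas between 6681 and 8625 genes lay outside these bounds for columns of different mice. The 2 libraries behind each pair of columns were therefore solved for as the difference (what the first column holds beyond the second) and the remainder (the second column less that difference). Both come from Wnt3a-treated cells. Which of them also received IL-4 is not given by the labels and was not inferred from the values, so both keep these names. The 6 macrophage markers, among them Adgre1, Csf1r and Cd68, summed to between 9093 and 10845 CPM in every library. In bulk RNA, fewer cells that carry a transcript and less of it per cell cannot be told apart.

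PGE2 is a lipid mediator made from arachidonic acid. Phospholipase A2 frees the arachidonic acid from membranes, cyclooxygenases convert it to PGH2, and PGE synthases convert PGH2 to PGE2. Other synthases draw on the same PGH2, 15-hydroxyprostaglandin dehydrogenase inactivates PGE2, and the secreted lipid acts on nearby cells through G protein-coupled EP receptors. In macrophages, PGE2 acting on EP2 and EP4 raises cyclic AMP and is known to restrain inflammatory cytokines.

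In Wnt3a-treated libraries, the inducible genes of PGE2 synthesis, Ptgs2 and Ptges, were higher and the gene of PGE2 breakdown, Hpgd, was lower. The constitutive synthesis genes did not move alike. Against untreated cells Ptges2 was higher in the difference (1.36-fold) and the remainder (1.32-fold). Ptgs1 was 1.47-fold lower in the difference and 2.22-fold higher in the remainder. Ptges3 and the receptor gene Ptger4 passed the test in no comparison. Ptgs2 rose 7.23-fold in the difference and 9.55-fold in the remainder over untreated cells, Ptges rose 3.48-fold and 2.49-fold, and Hpgd was lower by 6.07-fold and 11.5-fold. IL-4 alone raised Ptgs1 2.71-fold and Ptger2 1.46-fold and passed the test for none of the other 8 genes. In 9 fits that left out a mouse or a library, the IL-4 call held in 9 for Ptgs1 and in 1 for Ptger2. The lower Ptgs1 in the difference held in 2 of 9 such fits, and Ptges2 in 3 of 9 for the difference and 3 of 9 for the remainder. Fold changes and adjusted p-values are from edgeR's quasi-likelihood test with Benjamini-Hochberg adjustment over all 12421 genes tested, on 3 libraries a group, and levels are CPM, each gene's count as a share of the library's TMM-scaled size.

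**Figure D1:**
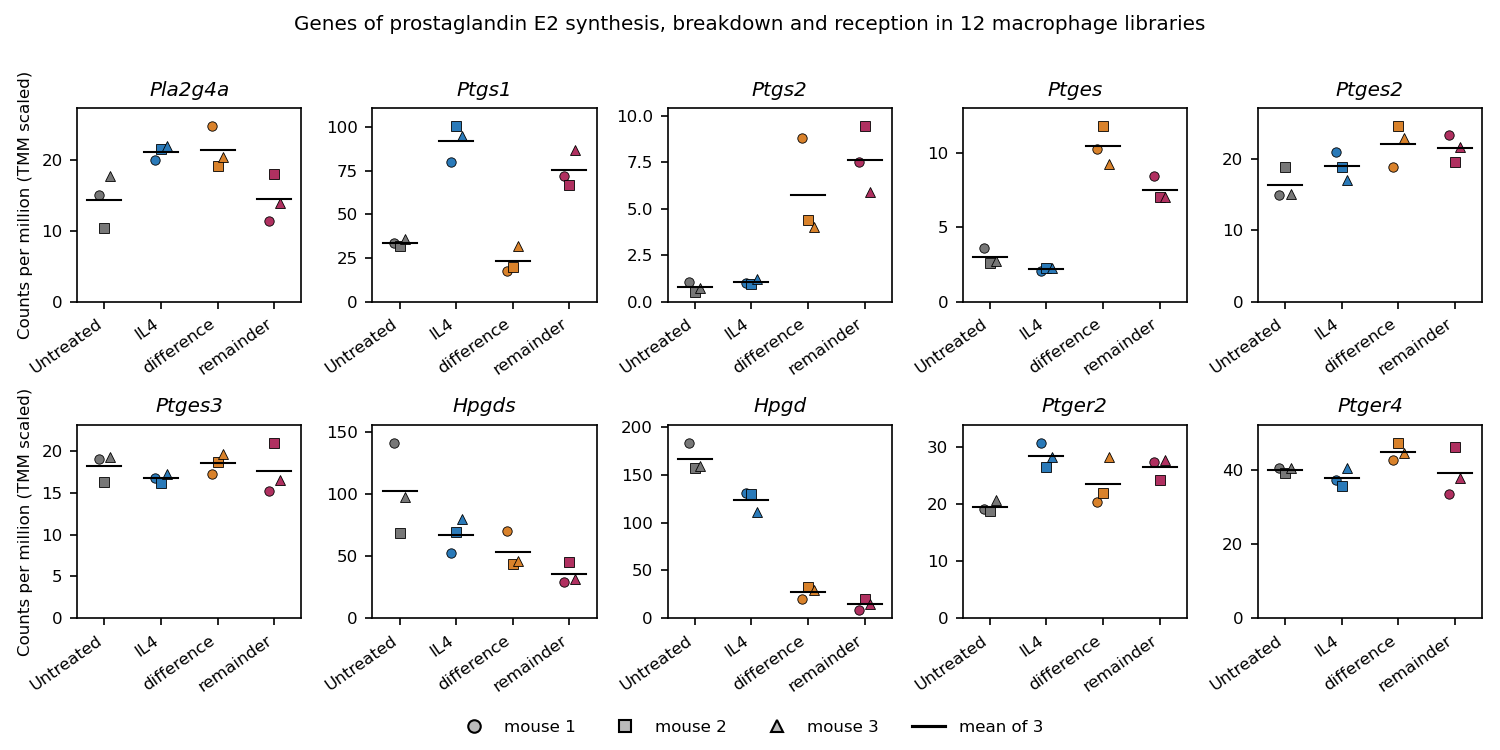
Level of each of the 10 genes in CPM (linear axes that start at 0) in the 12 libraries. Symbols mark mouse 1, 2 and 3 and the line is the mean of 3; Ptgs2 and Ptges stand higher in the difference and remainder than in the other libraries, and Hpgd stands lower.

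Pla2g4a encodes cytosolic phospholipase A2, which frees arachidonic acid from membrane phospholipids (GRCm38 chr1:149829618-149961290, minus strand, 20 exon blocks). In mouse 1, 2 and 3, Pla2g4a was at 15.1, 10.5 and 17.7 CPM in untreated cells, 20.1, 21.6 and 22.0 CPM with IL-4, 24.9, 19.3 and 20.5 CPM in the difference, and 11.5, 18.1 and 13.98 CPM in the remainder. The IL-4 and difference libraries all lay above the untreated ones, and the remainder overlapped them. Against untreated cells Pla2g4a was 1.49-fold higher in the difference (log2 0.58 ± 0.19 SE, adjusted p = 0.0378, edgeR), whereas the IL-4 value of 0.55 ± 0.19 did not pass (adjusted p = 0.154). The remainder stood at the untreated level (log2 0.0043 ± 0.19, adjusted p = 0.991). With the mouse as a block, the call in the difference was lost (adjusted p = 0.0592), as it was with total counts (0.103) or only the groups compared (0.0574). It was also lost without mouse 1 (adjusted p = 0.162), mouse 2 (0.0604) or mouse 3 (0.091), without the untreated library of mouse 1 (0.067) or mouse 2 (0.118), and without the difference library of mouse 1 (0.158) or mouse 3 (0.0646).

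Ptgs1 and Ptgs2 encode the cyclooxygenases COX-1 and COX-2, which convert arachidonic acid to PGH2. Ptgs1, the constitutive enzyme (chr2:36230426-36252272, plus strand, 11 exon blocks), was at 33.7, 31.8 and 36.1 CPM in untreated cells, 79.8, 101 and 95.0 CPM with IL-4, 17.6, 19.8 and 32.1 CPM in the difference, and 71.8, 66.9 and 86.9 CPM in the remainder. The difference and the remainder did not overlap, and the remainder reached into the IL-4 range. Against untreated cells Ptgs1 rose with IL-4 by log2 1.44 ± 0.18 (adjusted p = 0.000256) and in the remainder by 1.15 ± 0.18 (adjusted p = 0.000231). It was lower in the difference (log2 -0.56 ± 0.18, adjusted p = 0.0403). Remainder and difference differed by log2 1.71 ± 0.18 (adjusted p = 6.78e-05), and this was the largest difference among the 10 genes between them. Remainder and IL-4 libraries did not differ past the threshold (log2 -0.29 ± 0.17, adjusted p = 0.27).

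For the lower Ptgs1 in the difference, the mouse 3 library at 32.1 CPM lay inside the untreated range. The call was lost with only the groups compared (adjusted p = 0.0895), without mouse 1 (adjusted p = 0.218) or mouse 2 (0.142), without the untreated library of mouse 1 (0.0828), mouse 2 (0.0544) or mouse 3 (0.113), and without the difference library of mouse 1 (0.158) or mouse 2 (0.151). In the columns as labelled, which mix both libraries, Ptgs1 was higher in the Wnt3a column than in untreated cells (log2 0.25, adjusted p = 0.296).

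Ptgs2, the inducible cyclooxygenase gene (chr1:150100031-150108227, plus strand, 11 exon blocks), lies 138740 bases from Pla2g4a on the same chromosome. Its promoter window, 250 bases before to 50 bases after the RefSeq start (GRCm38.p6), is shown because Ptgs2 rose in every Wnt3a-treated library. Capitals mark the C/EBP-type letters TTGCGCAA and the CRE half-site TGACG read on the other strand as CGTCA.
Ptgs2 chr1:150099781-150100080, plus strand: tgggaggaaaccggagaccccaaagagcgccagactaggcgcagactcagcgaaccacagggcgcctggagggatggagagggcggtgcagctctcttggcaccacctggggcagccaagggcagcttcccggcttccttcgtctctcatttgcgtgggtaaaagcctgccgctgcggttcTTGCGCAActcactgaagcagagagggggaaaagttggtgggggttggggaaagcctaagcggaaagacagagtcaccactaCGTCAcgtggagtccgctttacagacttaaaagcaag
The TTGCGCAA run begins 69 bases before the start and the CRE half-site at base 14 after it. Of all 32851 RefSeq promoter windows, 0.183% hold TTGCGCAA and 20.8% hold TGACG on either strand. The C/EBP-type letters were chosen after values were seen, so their share is a description and not a test. The TCF/LEF core CTTTGA, which 16.0% of windows hold, is in none of the windows of the 10 genes.

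Per kb of exon, Ptgs2 had the lowest mean of the 10 genes in all 4 groups. It was at 20, 8 and 12 counts in untreated cells of mouse 1, 2 and 3 and 17, 15 and 17 counts with IL-4. The Wnt3a-treated libraries held 154, 72 and 55 counts in the difference and 121, 154 and 90 in the remainder. In CPM these are 1.07, 0.514 and 0.752 in untreated cells, 1.02, 0.958 and 1.23 with IL-4, 8.81, 4.39 and 3.996 in the difference, and 7.51, 9.46 and 5.91 in the remainder. The 6 Wnt3a-treated libraries all lay above the other 6, with the highest level of the difference in mouse 1 and of the remainder in mouse 2. Ptgs2 rose over untreated cells by log2 2.85 ± 0.36 in the difference (adjusted p = 4.43e-05) and 3.26 ± 0.35 in the remainder (adjusted p = 9.59e-06), and over IL-4 alone by 2.43 ± 0.34 (adjusted p = 0.000125) and 2.84 ± 0.34 (adjusted p = 3.39e-05). IL-4 alone gave log2 0.42 ± 0.43 (adjusted p = 0.744), and difference and remainder were 0.40 ± 0.28 apart (adjusted p = 0.467). With so few counts at rest, a modest IL-4 effect on Ptgs2 was not detectable at this depth.

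Per kb of exon, Ptgs2 stayed below Ptgs1 in all 12 libraries, but by different factors. The ratio of Ptgs2 to Ptgs1 ran from 0.0137 to 0.0271 in untreated cells and from 0.00807 to 0.0109 with IL-4. It ran from 0.106 to 0.424 in the difference and from 0.0577 to 0.120 in the remainder, above the other 2 groups in every library.

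**Figure D2:**
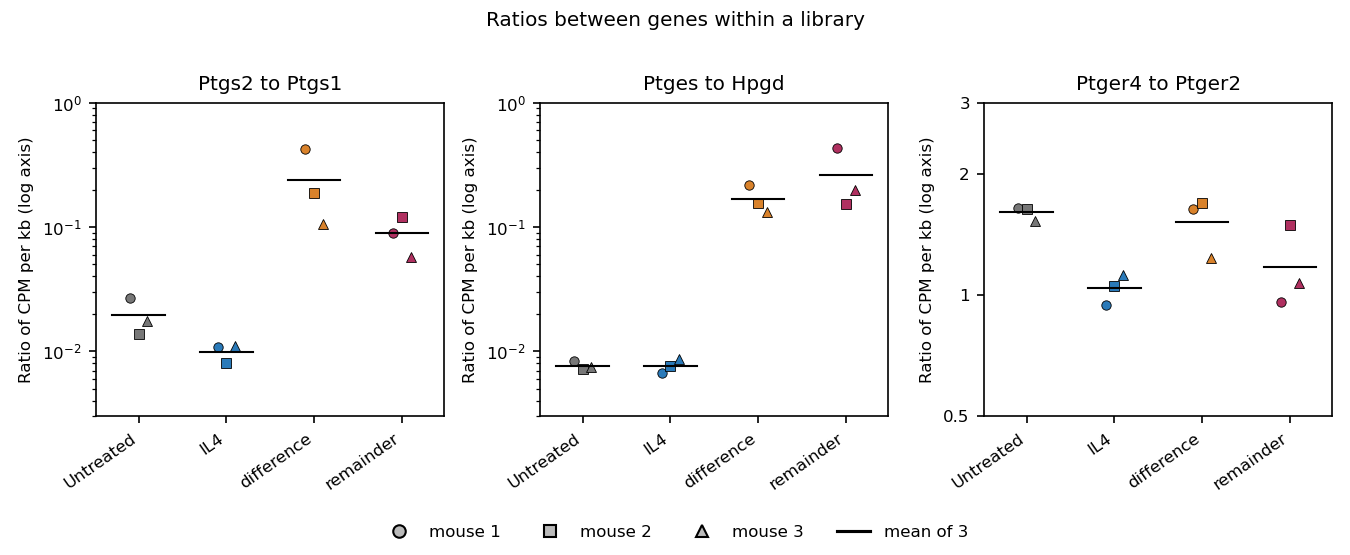
Ratios within each library of CPM per kb of exon (log axes) for Ptgs2 to Ptgs1, Ptges to Hpgd and Ptger4 to Ptger2, by mouse, with the mean of 3 as a line. The first 2 ratios were higher in every difference and remainder library than in any untreated or IL-4 library, and the receptor ratio stayed between 0.943 and 1.69.

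Ptges, Ptges2 and Ptges3 encode the PGE synthases, which convert PGH2 to PGE2. Ptges encodes the inducible microsomal enzyme that works with COX-2 (chr2:30889471-30929863, minus strand, 6 exon blocks). Its promoter window is printed beside that of Ptgs2 because both genes rose, with capitals on the STAT6-type match, TTC and GAA with 4 bases between them.
Ptges chr2:30903248-30903547, minus strand: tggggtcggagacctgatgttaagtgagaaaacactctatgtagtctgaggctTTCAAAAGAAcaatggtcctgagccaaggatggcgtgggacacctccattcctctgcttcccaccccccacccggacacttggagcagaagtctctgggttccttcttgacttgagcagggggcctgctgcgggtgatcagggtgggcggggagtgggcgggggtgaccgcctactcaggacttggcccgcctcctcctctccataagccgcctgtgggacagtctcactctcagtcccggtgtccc
The match begins 197 bases before the RefSeq start, and 6.95% of all windows hold these letters. On the minus strand the GENCODE gene starts at chr2:30929863, so this window lies inside that gene and not at its outermost start. The Ptges window holds none of the other letters searched.

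Ptges was at 3.598, 2.64 and 2.76 CPM in untreated cells, 2.04, 2.30 and 2.24 CPM with IL-4, 10.3, 11.8 and 9.30 CPM in the difference, and 8.44, 7.06 and 7.02 CPM in the remainder. The 4 groups did not overlap, with the difference highest and the IL-4 libraries lowest. Ptges rose over untreated cells by log2 1.80 ± 0.16 in the difference (adjusted p = 2.54e-06) and 1.32 ± 0.17 in the remainder (adjusted p = 4.28e-05), and over IL-4 alone by 2.26 ± 0.17 (adjusted p = 3.98e-07) and 1.78 ± 0.18 (adjusted p = 5.58e-06). The steps from untreated to IL-4 (log2 -0.46 ± 0.19, adjusted p = 0.26) and from difference to remainder (log2 -0.48 ± 0.15, adjusted p = 0.0904) did not pass the test, although each went the same way in all 3 mice.

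Ptges2 encodes a membrane-associated synthase found constitutively in many tissues (chr2:32395896-32405772, plus strand, 7 exon blocks). Ptges2 was at 14.98, 19.0 and 15.2 CPM in untreated cells, 21.0, 19.0 and 17.0 CPM with IL-4, 18.9, 24.6 and 23.0 CPM in the difference, and 23.4, 19.6 and 21.7 CPM in the remainder. The remainder lay above the untreated range and the difference overlapped it in 1 library. Ptges2 was 1.36-fold higher in the difference (adjusted p = 0.0293) and 1.32-fold higher in the remainder (adjusted p = 0.0419), and with the mouse as a block the second call was lost (adjusted p = 0.0603), as it was with total counts (0.076) or only the groups compared (0.0764). The call in the difference was lost without mouse 2 (adjusted p = 0.0542) or mouse 3 (0.28), the untreated library of mouse 1 (0.103) or mouse 3 (0.0935), and the difference library of mouse 2 (0.124) or mouse 3 (0.0848). That in the remainder was lost without mouse 1 (adjusted p = 0.206) or mouse 3 (0.321), the untreated library of mouse 1 (0.135) or mouse 3 (0.128), and the remainder library of mouse 1 (0.123) or mouse 3 (0.10).

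Ptges3 encodes the cytosolic synthase, which is also the HSP90 co-chaperone p23 (chr10:128058954-128077272, plus strand, 8 exon blocks). Ptges3 was at 19.0, 16.3 and 19.3 CPM in untreated cells, 16.8, 16.2 and 17.2 CPM with IL-4, 17.3, 18.7 and 19.6 CPM in the difference, and 15.3, 21.0 and 16.5 CPM in the remainder. The groups overlapped apart from the IL-4 and difference libraries, and over the 7 comparisons of levels its log2 differences ran from -0.12 to 0.15. Stretches of 50 bases shared with other genes made up 19.6% of those in its exons, and the pseudogene Ptges3-ps held 0 to 5 counts, so how reads were divided between such copies is uncertain.

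Hpgds encodes hematopoietic prostaglandin D synthase, which turns PGH2 into PGD2 instead (chr6:65117293-65144908, minus strand, 6 exon blocks). Hpgds was at 142, 68.9 and 98.1 CPM in untreated cells, 52.6, 69.5 and 80.4 CPM with IL-4, 69.9, 43.6 and 46.1 CPM in the difference, and 29.3, 45.4 and 31.2 CPM in the remainder. Untreated cells were the most spread out, with mouse 1 highest, and the remainder lay below every untreated and IL-4 library. Hpgds was lower than in untreated cells by log2 -0.95 ± 0.25 in the difference (adjusted p = 0.0144) and -1.54 ± 0.26 in the remainder (adjusted p = 0.000501), and lower in the remainder than with IL-4 (log2 -0.93 ± 0.26, adjusted p = 0.0193). The remainder call against untreated cells held in all 9 fits that left out a mouse or a library. That in the difference was lost without mouse 3 (adjusted p = 0.163), the untreated library of mouse 1 (0.0724) and the difference library of mouse 2 (0.0666) or mouse 3 (0.0602). That against IL-4 was lost without mouse 3 (adjusted p = 0.354), the IL-4 library of mouse 2 (0.0651) or mouse 3 (0.103) and the remainder library of mouse 1 (0.0945) or mouse 3 (0.0778).

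Hpgds is also a product of mast cells, so the 5 mast cell markers were read beside it. Fcer1a, Ms4a2 and Tpsb2 had 0 counts in all 12 libraries, and Cpa3 had between 0 and 9. Kit, which other marrow cells also carry, gave 59 to 73 counts in untreated cells, 28 to 38 with IL-4 and 22 to 46 with Wnt3a, and was lower there (log2 -0.45 ± 0.16, adjusted p = 0.0423, edgeR), as it was with IL-4 (log2 -0.97 ± 0.22, adjusted p = 0.0226). The summed mast cell markers ran from 3.79 to 4.57 CPM in untreated cells, 1.79 to 2.40 with IL-4, 2.69 to 3.11 in the difference and 1.49 to 2.76 in the remainder, and their part in the Hpgds result was not tested.

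Hpgd encodes 15-hydroxyprostaglandin dehydrogenase, which inactivates PGE2 by oxidation (chr8:56294585-56321043, plus strand, 7 exon blocks). Its promoter window is shown because Hpgd moved opposite to Ptgs2 and Ptges, with capitals on the letters TATAAA read on the gene's strand.
Hpgd chr8:56294302-56294601, plus strand: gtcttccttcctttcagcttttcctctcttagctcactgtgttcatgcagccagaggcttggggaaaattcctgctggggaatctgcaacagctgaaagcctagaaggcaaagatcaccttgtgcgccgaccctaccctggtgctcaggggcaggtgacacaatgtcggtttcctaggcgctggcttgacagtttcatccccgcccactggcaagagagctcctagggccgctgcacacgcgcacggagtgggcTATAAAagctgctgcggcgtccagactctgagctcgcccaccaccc
The TATAAA run begins at base 5 after the RefSeq start, and 8.32% of all windows hold these letters on the gene's strand. The GENCODE gene start at chr8:56294585 lies further downstream, so the run is before that start.

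Hpgd was at 184, 157 and 159 CPM in untreated cells, 131, 130 and 111 CPM with IL-4, 20.2, 32.4 and 29.9 CPM in the difference, and 8.38, 19.8 and 15.3 CPM in the remainder. The 4 groups did not overlap, and in each mouse the order was untreated, IL-4, difference and remainder from high to low. Hpgd was lower than in untreated cells by log2 -2.60 ± 0.22 in the difference (adjusted p = 1.3e-06) and -3.52 ± 0.24 in the remainder (adjusted p = 1.04e-07). Against IL-4 alone it was lower by -2.18 ± 0.22 (adjusted p = 5.61e-06) and -3.10 ± 0.23 (adjusted p = 4.42e-07). The step from untreated to IL-4 did not pass (log2 -0.43 ± 0.20, adjusted p = 0.366).

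Hpgd was also lower in the remainder than in the difference, by log2 -0.92 ± 0.23 (adjusted p = 0.0355). That call was lost with total counts (adjusted p = 0.053), with only the groups compared (0.124), without mouse 3 (0.43), the difference library of mouse 2 (0.143) or mouse 3 (0.113) and the remainder library of mouse 1 (0.0933) or mouse 3 (0.0927).

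Per kb of exon, Hpgd was the most abundant of the 10 transcripts in untreated cells (99.1 ± 8.77 CPM per kb, mean ± SD) and with IL-4 (73.7 ± 6.95). In the difference it still ranked first (16.4 ± 3.82), and in the remainder Ptgs1 (19.4 ± 2.67) stood above Hpgd (8.60 ± 3.41). Next in untreated cells came Hpgds (16.0 ± 5.70), Ptgs1 (8.71 ± 0.56) and Ptges3 (8.21 ± 0.76), and the ranges of the last pair overlapped. The ratio of Ptges to Hpgd per kb ran from 0.00717 to 0.00838 in untreated cells and from 0.00664 to 0.00865 with IL-4, against 0.133 to 0.218 in the difference and 0.153 to 0.431 in the remainder. The first pair of groups overlapped, as did the second pair, and every Wnt3a-treated library lay above all others.

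Ptger2 and Ptger4 encode EP2 and EP4, the PGE2 receptors that couple to the stimulatory G protein and raise cyclic AMP. Ptger2 (chr14:44988195-45003820, plus strand, 2 exon blocks) was at 19.2, 18.7 and 20.6 CPM in untreated cells, 30.7, 26.4 and 28.1 CPM with IL-4, 20.4, 21.8 and 28.1 CPM in the difference, and 27.2, 24.2 and 27.6 CPM in the remainder. All IL-4 and remainder libraries lay above the untreated ones, and the difference overlapped both. Ptger2 was higher with IL-4 (log2 0.54 ± 0.12, adjusted p = 0.0234) and in the remainder (log2 0.43 ± 0.12, adjusted p = 0.0178), and not past the threshold in the difference (log2 0.26 ± 0.12, adjusted p = 0.144).

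The IL-4 call of Ptger2 was lost without mouse 1 (adjusted p = 0.168), mouse 2 (0.0934) or mouse 3 (0.195), without the untreated library of mouse 1 (0.0821), mouse 2 (0.0805) or mouse 3 (0.062), and without the IL-4 library of mouse 1 (0.116) or mouse 3 (0.0824). Its log2 value stayed between 0.48 and 0.58 in all alternatives. The remainder call was lost without mouse 1 (adjusted p = 0.0928) or mouse 3 (0.0921), the untreated library of mouse 1 (0.0521) and the remainder library of mouse 1 (0.0509) or mouse 3 (0.0676).

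Ptger4 (chr15:5206661-5244187, minus strand, 5 exon blocks) was at 40.4, 39.1 and 40.4 CPM in untreated cells, 37.1, 35.7 and 40.3 CPM with IL-4, 42.5, 47.3 and 44.4 CPM in the difference, and 33.4, 46.1 and 37.8 CPM in the remainder. The difference libraries lay above the untreated and IL-4 ones, the others overlapped, and log2 differences between groups ran from -0.19 to 0.25 with no call. Of the Ptger4 exon length, 16.5% overlaps genes on the opposite strand, where Gm15937 had 0 counts and Ttc33 had 287 to 478, and the sources used here do not say whether counting used strand. The ratio of Ptger4 to Ptger2 per kb ran from 1.53 to 1.65 in untreated cells, 0.943 to 1.12 with IL-4, 1.23 to 1.69 in the difference and 0.959 to 1.49 in the remainder, so the IL-4 range lay below the untreated range.

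The counts of calls were read against all genes tested. With IL-4 alone, 2 of the 10 genes were called, both higher, where 3.4% of all 12421 genes were called, 2.31% higher and 1.09% lower. Against untreated cells, 7 were called in the difference (4 higher, 3 lower) and 7 in the remainder (5 higher, 2 lower), where 23.2% and 25.3% of all genes were called. Of all genes, 11.8% were higher and 11.4% lower in the difference, and 13.6% and 11.7% in the remainder. The median log2 difference over the 10 genes was 0.21 and 0.20 in the difference and the remainder, beside -0.01 and -0.02 over all genes. In numbers, 1462 genes were higher and 1422 lower in the difference and 1687 and 1450 in the remainder. Scaling by total counts turned these into 1133 higher and 2232 lower and 1293 and 2340. Against IL-4 alone, 4 of the 10 were called in the difference and 4 in the remainder, where 20.3% of all genes were called in each. Between remainder and difference 2 were called, Ptgs1 and Hpgd, where 5.25% of all genes were. All these comparisons share control libraries, so they are not independent of each other.

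**Figure D3:**
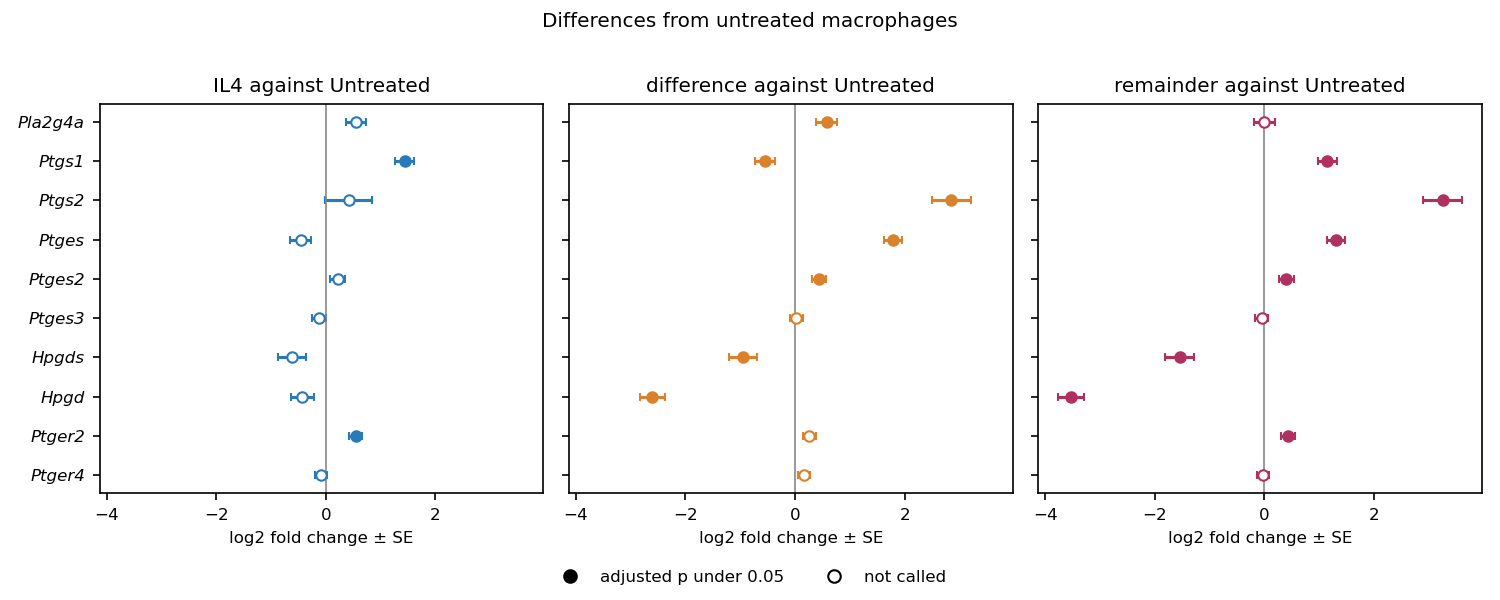
Log2 fold change from untreated cells with its SE for the 10 genes, in IL-4, difference and remainder libraries (3 a group). Filled symbols mark an adjusted p under 0.05; Ptgs2, Ptges and Hpgd have the largest differences in the Wnt3a-treated libraries, and Ptgs1 lies above 0 in 2 panels and below 0 in the difference.

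Taking all 6 Wnt3a-treated libraries against the other 6 needs no assignment of difference and remainder. In that comparison 6 of the 10 genes were called, where 32.6% of all genes were, 16.5% higher and 16.1% lower. Ptgs2 (log2 2.84 ± 0.25, adjusted p = 6.11e-07), Ptges (1.79 ± 0.12, adjusted p = 4.81e-08) and Ptges2 (0.31 ± 0.09, adjusted p = 0.021) were higher. Hpgd (-2.85 ± 0.16, adjusted p = 8.09e-09), Hpgds (-0.94 ± 0.18, adjusted p = 0.00105) and Ptgs1 (-0.42 ± 0.12, adjusted p = 0.0181) were lower. For Ptgs2, Ptges and Hpgd each of the 22 alternatives kept the call and the direction. The Ptgs1 value averages a group in which it was lower and another in which it was higher, and its call was lost without mouse 1 (adjusted p = 0.0691) or mouse 2 (0.136), the IL-4 library of mouse 2 (0.0526) or the difference library of mouse 2 (0.0535). Ptges2 lost its call without mouse 3 (adjusted p = 0.272), the untreated library of mouse 1 (0.0511) or the difference library of mouse 2 (0.0607), and Hpgds lost its call without mouse 3 (0.0664).

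The study asked whether Wnt3a alters the response to IL-4. With the remainder taken as the library that received both agents, the IL-4 effect in Wnt3a-treated cells differed from that in other cells for 0 of the 10 genes, where 0.105% of all genes were called (1576 of 12421 had an unadjusted p under 0.05), and by DESeq2 for 1, Pla2g4a (log2 -1.14, adjusted p = 0.0108). With the difference taken as that library, it differed for 4 genes, Ptgs1, Ptges, Hpgd and Ptger2, where 7.33% of all genes were called. The labels do not decide between these, and no library was assigned by its values. Arg1, a gene that IL-4 is known to induce in macrophages, had 26, 26 and 19 counts with IL-4 alone, 0, 1 and 0 in the difference and 402, 97 and 114 in the remainder, against 0, 2 and 1 in untreated cells.

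Other genes that feed the pathway were taken from fixed lists, and each count is for the 6 Wnt3a-treated libraries against the other 6 unless IL-4 is named. Each count is to be read beside the share of all genes called. That share was 32.6% in this comparison (16.5% higher, 16.1% lower) and 3.4% with IL-4 (2.31% higher, 1.09% lower). Of 19 genes of arachidonate release and handling, 13 were tested, 4 were higher and 3 lower. Pla2g7, which encodes platelet-activating factor acetylhydrolase, was higher (log2 1.55 ± 0.11), as were Plaat3 (0.77 ± 0.11), a phospholipase of adipose tissue, and Abhd6 (0.50 ± 0.16), a monoacylglycerol lipase. Daglb, a diacylglycerol lipase, was lower (-0.70 ± 0.07) and was the 1 gene of this list called with IL-4 (0.72 ± 0.10, adjusted p = 0.00064), and 24.1% of its exon length overlaps Rac1 on the opposite strand. Pla2g15 (-0.39 ± 0.08), the lysosomal phospholipase, and Dagla (-0.36 ± 0.10) were also lower. Against untreated cells alone, 3 genes of this list were higher and 3 lower in the difference, and 3 higher and 0 lower in the remainder.

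Of 6 synthases of other prostanoids, 4 were tested and 1 was called lower, Akr1b3 (log2 -0.35 ± 0.07). Against untreated cells alone, 0 of these were called in the difference, and in the remainder 1 was higher and 0 lower. Tbxas1, the thromboxane synthase gene, was higher with IL-4 (0.45 ± 0.09, adjusted p = 0.0117) and ran from 141 to 157 CPM in untreated cells and 200 to 207 CPM with IL-4. Ptgds and Ptgis were at 0 to 3 and 0 to 5 counts.

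Of the transport and reduction genes, 4 of the 5 listed were matched, 3 were tested and 2 were higher. These were Abcc4 (log2 0.51 ± 0.07), the exporter of prostaglandins and cyclic nucleotides, and Ptgr1 (0.46 ± 0.07), which reduces the keto product of the dehydrogenase. Slco2a1, the uptake transporter, was at 0 or 1 count, and Ptgr3 was not matched to a gene of the table.

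Among 7 other prostanoid receptor genes, 3 were tested. Ptgir, the prostacyclin receptor gene, was higher with Wnt3a (log2 1.06 ± 0.09) and with IL-4 (0.62 ± 0.13, adjusted p = 0.0154), from 21.9 CPM in untreated cells to 33.8 with IL-4, 49.8 in the difference and 64.7 in the remainder (means of 3). Ptgdr and Ptgfr had 0 counts, and Ptgdr2 and Tbxa2r 0 to 1 and 0 to 3 counts.

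Of 12 genes that couple EP2 and EP4 to the cell, 10 were tested, 1 was higher and 5 lower, where 32.6% of all genes were called. The higher one was Adcy6, an adenylyl cyclase gene (log2 0.62 ± 0.22), which was also the 1 gene of this list called with IL-4, higher by 1.30 ± 0.33 (adjusted p = 0.0482). Rapgef3, a cyclic AMP-activated exchange factor, was lower by log2 -1.21 ± 0.14, Adcy3, another cyclase, by -1.03 ± 0.13, and Gnas, the stimulatory G protein, by -0.29 ± 0.10. The catalytic and regulatory kinase genes Prkaca and Prkar1a passed in neither comparison (log2 0.12 ± 0.06 and 0.02 ± 0.05 with Wnt3a).

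Of 16 genes known to respond to cyclic AMP or PGE2, 14 were tested. With Wnt3a 6 were higher and 4 lower, where 32.6% of all genes were called. With IL-4 1 was higher and 5 lower, where 3.4% of all genes were called. The listed genes did not move one way. The gene higher with IL-4 was Arg1, which encodes arginase 1. Thbs1, which encodes the matrix protein thrombospondin-1, was higher with Wnt3a (log2 2.93 ± 0.14) and lower with IL-4 (-1.21 ± 0.19), and Il1rn, the IL-1 receptor antagonist gene, was higher with Wnt3a (1.62 ± 0.12), as was the phosphodiesterase gene Pde4b (0.78 ± 0.10). The immediate-early gene Nr4a1 was lower with Wnt3a (-1.93 ± 0.19) and with IL-4 (-1.20 ± 0.24), as was Dusp1 (-1.09 ± 0.09 and -0.52 ± 0.13), a MAP kinase phosphatase gene, and Il10 was lower with Wnt3a (-1.63 ± 0.23).

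**Figure D4:**
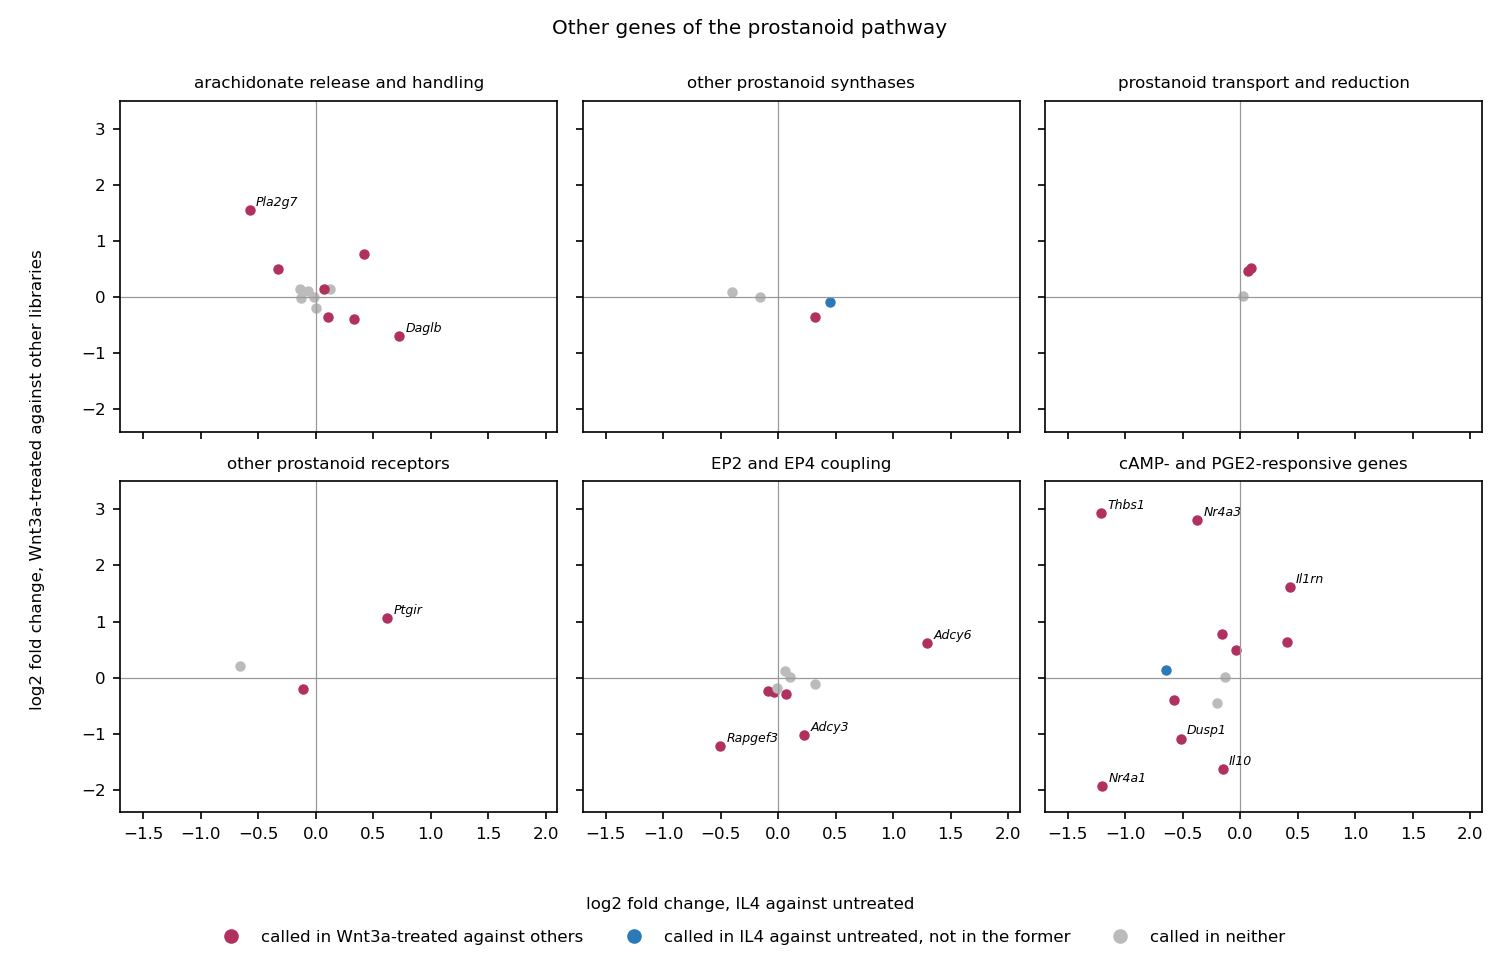
Log2 fold change in the 6 Wnt3a-treated libraries against the other 6 (vertical) by that of IL-4 against untreated cells (horizontal) for the tested genes of 6 lists, Arg1 left out because its untreated counts were at the floor. The untreated and IL-4 libraries enter both axes, so the axes are not independent; Thbs1 lies highest and Nr4a1 lowest.

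The genes most like 3 members over the 12 libraries were named by Pearson's r of log2 CPM among genes whose mean reached 8 CPM, as a description with no test. All of these follow the split between Wnt3a-treated and other libraries, which the libraries share. For Ptgs2 they were Dck (r = 0.986), Parp11 (0.984) and P2ry14 (0.979), and for Ptges Smpdl3b (0.988), Tgfbi (0.987) and Osbpl3 (0.983). For Hpgd they were Tpd52 (0.987), Fam129a (0.985) and Pmp22 (0.984). Tgfbi went from 213 ± 21.1 CPM in untreated cells to 1112 ± 14.99 in the difference and 868 ± 68.1 in the remainder (mean ± SD). Tpd52 went from 288 ± 2.30 CPM to 185 ± 5.15 and 147 ± 16.8, a smaller step than that of Hpgd.

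Of the 6 macrophage markers, 3 were higher with Wnt3a and 1 lower, where 32.6% of all genes were called. The median log2 difference over the 6 was 0.11. Itgam (log2 0.98 ± 0.07) and Fcgr1 (1.03 ± 0.07) were among the higher ones. Of the Itgam exon length, 68.7% overlaps Gm49368 on the same strand. With IL-4, 0 of these markers were called, where 3.4% of all genes were. Markers of other cells were low and some moved with Wnt3a. Of 6 neutrophil markers, 4 were tested and 3 were lower with Wnt3a, and their sum ran from 26.4 to 32.8 CPM in untreated cells, 33.3 to 41.1 with IL-4, 20.6 to 32.8 in the difference and 19.5 to 21.1 in the remainder. Of 5 fibroblast and stromal markers, 3 were tested, with Col1a2 lower and Pdgfrb higher, and their sum ran from 8.11 to 19.2, 9.88 to 29.9, 5.74 to 11.9 and 6.88 to 16.9 CPM in the same order. Of 4 megakaryocyte and 3 dendritic cell markers, 2 and 1 were tested and 0 were called with IL-4 or over all Wnt3a-treated libraries. The tested dendritic cell marker, Zbtb46, with 4 to 28 counts a library, was higher in the remainder than in untreated cells (log2 1.56 ± 0.41, adjusted p = 0.0113, edgeR) and was called in the interaction with the difference as the library with both agents (-2.17 ± 0.59, adjusted p = 0.0381). Cd8a, a marker of T cells, had 0 counts in all libraries. Their part in the results above was not tested.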

How the data were processed

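The values deposited by the authors are raw counts per gene, made with HTSeq 0.11.1 from single reads that Trimmomatic 0.36 had trimmed and STAR 2.6.0 had aligned to mm10. The Wnt3a and Wnt3a+IL-4 columns share reads, so the difference and remainder were solved for in each mouse, and all values given for them were computed here. The 12421 genes that reached 10 counts in 3 or more libraries were tested with edgeR 4.0.16 (R 4.3.3), quasi-likelihood test, TMM scaling, all 12 libraries in a single fit without a term for the mouse, and Benjamini-Hochberg adjusted p under 0.05. SEs are the log2 fold change divided by the root of the F statistic. Of 48526 genes, 48058 were paired with a symbol, 0 rows named no gene and 0 columns were left unused. Gene positions and exon lengths came from GENCODE annotation of GRCm38 (mm10), and promoters from RefSeq GRCm38.p6 (all 10 genes matched). The test was checked on simulated data, in which every changed gene stood above the untreated levels of Ptgs2 and Ptges, so genes that low were not covered. The labels pair the samples, since every group holds a sample of every mouse, and deviations of same-mouse libraries from their group means correlated between -0.42 and 0.45 over 18 pairs, 6 of them over 0.1.

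The 10 genes, the gene lists and the tests were chosen with earlier results of these data known. Named genes are the 10, up to 3 higher and 3 lower called genes of each list with a mean of at least 1 CPM, and the 3 genes most alike to each of Ptgs2, Ptges and Hpgd. Genes named beside these (receptors and enzymes at the floor, coupling genes without a call, Arg1) were chosen after their values were seen, as were the C/EBP-type letters. Promoters were searched on both strands, except TATAAA, for a CRE half-site, a TCF/LEF core, C/EBP-type, NF-κB-type, AP-1-type and STAT-type letters and a TATA box. Alternatives were DESeq2 1.42.0, its size factors, total counts, no count filter, at least 1 CPM in 3 libraries, only the groups compared, the mouse as replicate block, the columns as labelled, and each mouse or library left out. A few results on listed genes are not reported here. SEs and p-values reflect the spread between libraries within the groups, which mixes mouse, culture and library. They do not use the pairing by mouse.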

Additional observations from a re-analysis of the deposited data

Results flagged for a closer look

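The effect of IL-4 with Wnt3a differed from its effect without Wnt3a for 4 genes by the interaction term (edgeR's quasi-likelihood test, Benjamini-Hochberg adjusted), if the difference is taken as the library that received both agents. For Ptgs1 the interaction was log2 -3.15 ± 0.25 (adjusted p = 2.1e-06), in the same direction in 3 of 3 mice and called in all 22 alternatives. For Hpgd it was 1.35 ± 0.31 (adjusted p = 0.0154), called in 19 of 22 alternatives and lost in the columns as labelled (adjusted p = 0.487), without mouse 3 (0.303) and without the difference library of mouse 2 (0.0506).

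For Ptges the interaction was 0.94 ± 0.24 (adjusted p = 0.0279), called in 12 of 22 alternatives. It was lost in the columns as labelled (adjusted p = 0.305), without mouse 1 (adjusted p = 0.143), mouse 2 (0.0846) or mouse 3 (0.229), without the untreated library of mouse 1 (0.0932), without the IL-4 library of mouse 1 (0.0756), mouse 2 (0.0606) or mouse 3 (0.0554), and without the difference library of mouse 2 (0.0772) or the remainder library of mouse 3 (0.0728). For Ptger2 it was -0.72 ± 0.17 (adjusted p = 0.0199), called in 16 of 22 and lost in the columns as labelled (0.085), without mouse 1 (adjusted p = 0.20) or mouse 3 (0.0865), the IL-4 library of mouse 1 (0.0579), the difference library of mouse 2 (0.0597) or the remainder library of mouse 3 (0.057).

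If the remainder is taken as that library instead, the same terms were 0.27 ± 0.25 for Ptgs1, -0.02 ± 0.25 for Ptges, -0.50 ± 0.31 for Hpgd and -0.37 ± 0.17 for Ptger2, with adjusted p from 0.391 to 0.991. The 4 results therefore rest on an assignment that the labels do not give. Arg1, which IL-4 is known to induce, had 0, 1 and 0 counts in the difference, beside 26, 26 and 19 with IL-4 alone and 402, 97 and 114 in the remainder.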

How the results depend on the processing

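Of 36 called values of the 10 genes over 9 comparisons, 20 kept their call and direction in each alternative run, among them Ptgs2, Ptges and Hpgd in the difference and the remainder against untreated cells and against IL-4. The number of genes called with IL-4 went from 2 to 5 without a count filter and to between 1 and 2 without a mouse or library. In the difference against untreated cells it went from 7 to between 3 and 5 when 1 was left out. In the remainder against the difference it went from 2 to 3 by DESeq2 (Pla2g4a added), 1 with total counts, 4 without a filter, 1 with only the groups compared, 0 in the columns as labelled (which share reads), and between 1 and 4 with 1 left out. In the interaction with the remainder as the library with both agents it went from 0 to 1 by DESeq2, 2 without a filter and 1 in the columns as labelled. In the other assignment it went from 4 to 1 in the columns and to between 1 and 5 with 1 left out. With the mouse as replicate block, the calls of Pla2g4a in the difference (log2 0.58) and Ptges2 in the remainder (0.41) against untreated cells were lost, and no other call of the 10 genes was lost. Calls over all genes moved too. Without mouse 3 they fell from 422 of 12421 genes to 77 of 12233 with IL-4. In the difference against untreated cells they fell from 2884 to 1220. Without a count filter, 812 of 23413 genes were called with IL-4.

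Some values changed sign. With total counts, which moved the median of all genes in the remainder against untreated cells from -0.02 to -0.13, they were Ptges3 in the difference (-0.066) and Pla2g4a in the remainder (-0.10) against untreated cells, Pla2g4a in the difference against IL-4 (-0.011), Pla2g4a (-0.056) and Ptges3 (-0.021) in all Wnt3a-treated libraries, and Ptgs2 (0.021) and Ptges (0.018) in the first interaction. With only the groups compared it was Pla2g4a in the remainder (-0.0054), and with the replicate block Ptgs2 in the first interaction (0.019). In the columns as labelled they were Ptgs1 (0.25), Ptges3 (-0.013) and Ptger4 (0.054) against untreated cells, Pla2g4a against IL-4 (-0.15), and Ptgs1 (-1.16), Ptges (0.39), Hpgd (0.29), Ptger4 (0.057) and Pla2g4a (-0.45, other assignment) in the interactions. Apart from the mixed columns, the cause was not tested.

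Leaving out a mouse or library turned the sign of uncalled values only, with these ranges. Against untreated cells Ptges3 ran from -0.059 to 0.11 in the difference, and in the remainder Ptges3 from -0.26 to 0.076, Ptger4 from -0.17 to 0.080 and Pla2g4a from -0.36 to 0.20. Against IL-4, Pla2g4a ran from -0.14 to 0.12 in the difference, and Ptges3 from -0.073 to 0.18 and Ptger4 from -0.10 to 0.17 in the remainder. Between remainder and difference, Ptges2 ran from -0.20 to 0.12 and Ptges3 from -0.21 to 0.022. In all Wnt3a-treated libraries, Pla2g4a ran from -0.12 to 0.15 and Ptges3 from -0.066 to 0.13. In the first interaction, Ptgs2 ran from -0.33 to 0.46, Hpgds from -0.28 to 0.28, Ptges from -0.34 to 0.27, Ptges3 from -0.075 to 0.15 and Ptger4 from -0.22 to 0.00053. In the other, Pla2g4a ran from -0.32 to 0.48 and Ptges2 from -0.45 to 0.12. Ptgs2 at 8 to 20 untreated counts has the widest error of the 10 genes, which limits what can be said of a small IL-4 effect on it.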
